A study of Homo sapiens with 8 samples.

Results

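Peaks of TAZ binding found after 48 h of doxycycline (Dox) were compared with those found without Dox in MCF10A, a line of human breast epithelium that is immortal but not transformed. The cells carry TAZ-4SA, a constitutively active TAZ, under a tetracycline-inducible promoter, and this holds for both conditions. The 48 h cells received 0.05 µg/ml Dox, and the others received none. ChIP-seq (chromatin immunoprecipitation and sequencing) was done with 1 library per condition and an antibody to TAZ. A peak is a stretch where the recovered DNA piles up over the local background, and its summit is the base with the highest pile. Members were taken by condition: 11767 peaks at 48 h and 2431 peaks without Dox, 14198 of the 55334 peaks of the whole series. A no Dox peak was counted as called at 48 h when at least 1 bp of it overlapped a 48 h peak.

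The antibody is not stated to tell TAZ-4SA from the cell's own TAZ, so the 48 h list can hold both forms. Whether TAZ-4SA was fully silent without Dox was not tested. An IgG library was made for each condition, and the labels attach 1 list to both libraries of a condition. Whether peaks were called against IgG is not given in the sources used here. Without replicates, a difference between conditions cannot be told apart from a difference between these single libraries. No p-value is given for this reason. The 95% intervals beside shares are exact binomial (Clopper-Pearson) intervals and cover counting error only. Peaks of 1 library are not independent replicates.

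TAZ and its relative YAP are co-activators at the end of the Hippo pathway, whose kinases LATS1 and LATS2 phosphorylate them and keep them out of the nucleus. TAZ cannot bind DNA directly and is carried to chromatin by partners, above all the TEAD factors, often beside AP-1, the dimer of JUN and FOS proteins. Many TEAD and AP-1 sites lie in enhancers. Promoters of genes used in every cell lie mostly in CpG islands, stretches rich in CpG dinucleotides, where ETS, SP/KLF, NRF1, YY1 and ZNF143 factors bind.

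The sequences at the summits below are picked examples, and each set is marked for a different feature. The windows of the first set hold TEAD, while 222 of the 356 promoter peaks called at 48 h held no TEAD consensus. They are from hg38, plus strand, in windows of 100 bp to each side of the no Dox summit, shortened where an annotated exon began. In the set below, no Dox peaks that were called at 48 h, capitals mark the TEAD consensus (ACATTCC or GCATTCC) and the AP-1 consensus (TGACTCA or TGAGTCA) on either strand. SCNN1A encodes the alpha subunit of the epithelial sodium channel, and the window at chr12:6376238-6376438 is centred 310 bp from its transcription start site (TSS), with a fold enrichment over background of 36.1 at 48 h and 14.2 without Dox. SLC7A5 encodes the large neutral amino acid transporter LAT1, and its window at chr16:87870725-87870925 is centred 1318 bp from the TSS, with 29.5 at 48 h and 13.8 without Dox. PTPN14 encodes a phosphatase that restrains YAP, and its window at chr1:214551802-214552002 is centred 300 bp from the TSS, with 15.4 at 48 h and 12.9 without Dox. The windows at chr20:62361858-62362058, in an intron 5312 bp from the TSS of LAMA5, a laminin alpha chain of basement membranes, and at chr1:16173638-16173838, between genes and 17669 bp from the TSS of EPHA2, an ephrin receptor, are distal.
SCNN1A: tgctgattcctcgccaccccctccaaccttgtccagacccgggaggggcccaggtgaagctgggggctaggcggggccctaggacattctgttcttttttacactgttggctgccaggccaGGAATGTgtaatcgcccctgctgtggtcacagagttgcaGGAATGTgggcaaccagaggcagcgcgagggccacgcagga
SLC7A5: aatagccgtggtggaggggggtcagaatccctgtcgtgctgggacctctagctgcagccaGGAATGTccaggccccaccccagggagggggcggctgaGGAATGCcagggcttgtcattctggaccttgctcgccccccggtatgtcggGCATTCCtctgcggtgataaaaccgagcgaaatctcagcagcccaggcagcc
PTPN14: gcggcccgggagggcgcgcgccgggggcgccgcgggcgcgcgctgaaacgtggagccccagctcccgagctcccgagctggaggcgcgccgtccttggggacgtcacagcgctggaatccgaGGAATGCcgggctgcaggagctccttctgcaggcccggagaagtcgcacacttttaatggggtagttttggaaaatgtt
LAMA5: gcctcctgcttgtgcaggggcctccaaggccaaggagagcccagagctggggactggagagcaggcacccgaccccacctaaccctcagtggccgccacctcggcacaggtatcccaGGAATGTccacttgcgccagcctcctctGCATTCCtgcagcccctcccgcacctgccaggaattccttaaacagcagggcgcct
EPHA2: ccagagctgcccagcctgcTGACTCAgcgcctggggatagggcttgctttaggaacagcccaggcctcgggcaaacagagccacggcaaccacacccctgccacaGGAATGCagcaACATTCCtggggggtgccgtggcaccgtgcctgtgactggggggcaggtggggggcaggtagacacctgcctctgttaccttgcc

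In the second set capitals mark every CpG. The promoters of RPS7, a protein of the small ribosomal subunit (chr2:3575101-3575259), and of DMAP1, a subunit of chromatin-modifying complexes (chr1:44213314-44213454), were not called at 48 h. The promoter of ZBTB45, a zinc finger factor (chr19:58519811-58519980), was called with a much smaller value. The windows at chr16:89240943-89241143, 16409 bp from the TSS of ZNF778, and at chr17:65123083-65123283, in an intron 14187 bp from the TSS of RGS9, are distal and were not called. They hold 13, 12, 21, 16 and 20 CpGs in the order printed, and none holds a TEAD or AP-1 consensus. CpG number alone does not part the sets, since the called PTPN14 window above holds 24 CpGs.
RPS7: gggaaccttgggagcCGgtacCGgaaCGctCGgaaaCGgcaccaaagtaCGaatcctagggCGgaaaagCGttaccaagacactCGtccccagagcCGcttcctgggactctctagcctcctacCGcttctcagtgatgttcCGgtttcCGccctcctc
DMAP1: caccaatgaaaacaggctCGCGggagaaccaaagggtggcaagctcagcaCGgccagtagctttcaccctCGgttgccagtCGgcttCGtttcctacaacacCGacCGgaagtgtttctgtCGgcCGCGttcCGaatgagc
ZBTB45: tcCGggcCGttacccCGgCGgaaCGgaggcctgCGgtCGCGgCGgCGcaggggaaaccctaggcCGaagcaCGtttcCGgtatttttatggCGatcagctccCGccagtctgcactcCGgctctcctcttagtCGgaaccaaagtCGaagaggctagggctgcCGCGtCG
ZNF778: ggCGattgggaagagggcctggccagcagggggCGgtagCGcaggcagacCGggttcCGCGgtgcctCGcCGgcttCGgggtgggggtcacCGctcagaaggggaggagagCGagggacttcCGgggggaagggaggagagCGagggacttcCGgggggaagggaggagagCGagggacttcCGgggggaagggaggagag
RGS9: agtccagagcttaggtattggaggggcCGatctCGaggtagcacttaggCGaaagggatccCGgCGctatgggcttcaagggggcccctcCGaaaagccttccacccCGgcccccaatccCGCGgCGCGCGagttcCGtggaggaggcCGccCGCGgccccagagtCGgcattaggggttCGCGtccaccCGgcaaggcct

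Depth was read from the lists, because read totals are not given there, and by these values the libraries differed. Fold enrichment, the authors' value, is the fragment pile at the summit over its local background, with a pseudocount of 1 on both. Solved from it and the p-value, the genome-wide background was 2.84 fragments at 48 h and 1.49 fragments without Dox, a ratio of 1.91. The median summit held 36 fragments at 48 h (Poisson interval of such a count 25.2 to 49.8) and 20 fragments without Dox (12.2 to 30.9). The part of depth in the calls was not tested. By these values the 48 h library was the deeper one, although they are not read totals and the medians are over different peaks. At its background, a pile of 11 fragments, a fold enrichment of 3.12, was the largest that missed the lowest −log10 p of the 48 h list, 4.52. A no Dox peak that was not called therefore stood below about 3.12 at 48 h, unless its pile there was too narrow for a call. This value is used as the ceiling for such peaks. It is approximate, since 186 of the 48 h peaks (1.58%) lay below it themselves, where the local background was higher.

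The first question was which no Dox peaks were found again by where they lay. Promoter peaks, with a summit within 3 kb of any annotated TSS, were mostly not found again, and distal peaks, in introns and between genes, mostly were. Against 32% over all no Dox peaks, 356 of 1728 promoter peaks (20.6%, interval 18.7 to 22.6) and 398 of 667 distal peaks (59.7%, 55.8 to 63.4) were called at 48 h. In introns the share was 61.4% (224 of 365) and between genes 57.6% (174 of 302). The 25 exon peaks outside promoters gave 18 calls, and 11 peaks lay on sequences outside chromosomes 1 to 22, X and Y. With the 48 h list held to its 2431 peaks of highest −log10 q, a choice made after seeing the data, the shares were 8.51% of promoter and 38.7% of distal peaks. Seen from the other list, 354 of 3054 promoter peaks and 398 of 8428 distal peaks at 48 h overlapped a no Dox peak.

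Among promoter peaks the share called climbed with distance from the TSS. It was 8.72% (6.72 to 11.1) for 688 summits within 50 bp, 14.1% (11.1 to 17.5) for 490 at 50 to 200 bp, 25.9% (20.6 to 31.7) for 255 at 200 to 500 bp, 46.1% (36.8 to 55.6) for 115 at 500 to 1000 bp and 60% (52.4 to 67.2) for 180 beyond 1000 bp. The last share is like that of distal peaks. The sequence changed along the same axis, since 93.3% of summits within 50 bp and 20.6% of those beyond 1000 bp were CpG-rich, as defined in the next paragraph. Within CpG-rich peaks the shares at the same distances were 7.48%, 10.1%, 14%, 28.3% and 24.3%, and within the other promoter peaks they were 26.1%, 37%, 53.2%, 61.3% and 69.2%. Distance and CpG content thus each went with the share called. Among distal peaks 61.7% were called at 3 to 10 kb (171 of 277, 55.7 to 67.5) and 57.8% at 10 to 100 kb (215 of 372, 52.6 to 62.9), with overlapping intervals.

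CpG content was measured over 250 bp to each side of the summit as the observed number of CpGs over that expected from the C and G content. The promoter peaks called at 48 h were poor in CpG and those not called were rich in it. The median ratio was 0.46 (quartiles 0.26 to 0.78) at the 356 called and 0.83 (0.72 to 0.91) at the 1372 not called, with a median GC content of 58.1% and 65.5%. Windows with a ratio of at least 0.6 and a GC content of at least 50% were taken as CpG-rich. They made up 39% of called promoter peaks (33.9 to 44.3) and 86.6% of those not called (84.7 to 88.3), and 67.5% of the windows at the TSS of 20033 protein-coding genes. Distal peaks were poor in CpG throughout, with CpG-rich windows at 2.76% of those called (11 of 398) and 16% of those not called (43 of 269).

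The share of promoter peaks called dropped along the CpG scale, from 67.9% (53 of 78) at ratios under 0.2 to 67.1% at 0.2 to 0.4, 37.3% at 0.4 to 0.6, 13.9% at 0.6 to 0.8, 9.2% at 0.8 to 1.0 and 7.08% (8 of 113) at 1.0 or more. Distal peaks gave 72.4%, 62.8%, 45.8%, 23.3%, 36.8% and 15.4% over the same steps, the last 3 from 43, 19 and 13 peaks. In each of the 3 steps below 0.6 the intervals of distal and promoter peaks overlapped. They also overlapped at 0.6 to 0.8, with 11 to 17.2 for promoter and 11.8 to 38.6 for distal peaks. The same held at 1.0 or more, with 3.11 to 13.5 and 1.92 to 45.4. Only at 0.8 to 1.0, with 19 distal peaks, did they not, with 7.23 to 11.5 for promoter and 16.3 to 61.6 for distal peaks.

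**Figure D1:**
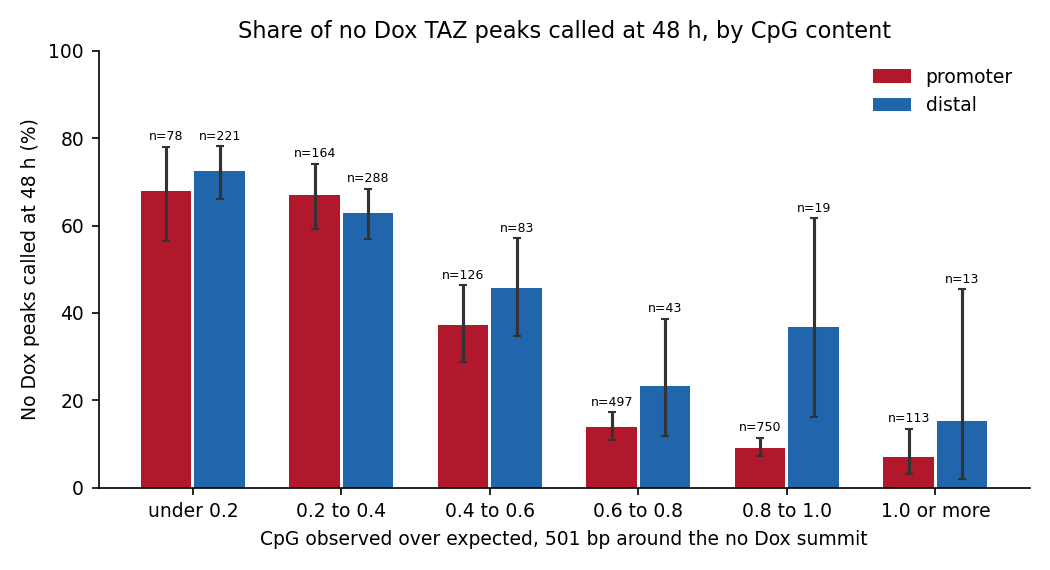
Share of no Dox TAZ peaks (%) called at 48 h on the y axis, in 6 steps of CpG observed over expected within 250 bp of the summit on the x axis, with bars for promoter and distal peaks, exact 95% intervals as error bars and the number of peaks above. The promoter bars stand at 67.9% in the lowest step and 7.08% in the highest, and the distal bars at 72.4% and 15.4%.

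The newly called 48 h peaks were poorer still in CpG. Of the 2700 promoter peaks at 48 h with no overlapping no Dox peak, 7.63% were CpG-rich (6.66 to 8.7), against 33.6% of the 354 shared promoter peaks. Of the 8030 distal peaks at 48 h without such an overlap, 0.324% were CpG-rich, against 2.51% of the 398 shared ones. The shared peaks therefore lay between the peaks of the single lists in CpG content.

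Consensus sequences of 21 motifs were searched on both strands within 100 bp of each summit, and the shares were set beside windows 1 kb to each side and beside all protein-coding TSS. TEAD marked the called peaks. The consensus stood at 37.6% of called promoter peaks (134 of 356, interval 32.6 to 42.9) and 4.3% of those not called (59 of 1372, 3.29 to 5.51), and at 45.5% of called distal peaks (181 of 398, 40.5 to 50.5) and 7.43% of those not called (20 of 269, 4.6 to 11.2). The outer windows held it in 4.77% to 6.32% of cases and the TSS windows in 2.92%. Peaks not called thus held the TEAD consensus about as often as the sequence around them. At 48 h it stood at 40.5% of promoter peaks and 41.2% of distal peaks that had no no Dox partner.

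The number of TEAD matches went the same way. Promoter peaks with 0, 1 and at least 2 matches were called in 14.5% (222 of 1535), 66.9% (115 of 172) and 90.5% (19 of 21) of cases, and distal peaks in 46.6% (217 of 466), 87.4% (139 of 159) and 100% (42 of 42, lower bound 91.6%). The nearest match lay a median 25 bp from the summit at called promoter peaks and 48 bp at those not called, and 25 bp and 41 bp at distal peaks.

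AP-1 followed TEAD at lower shares. Its consensus stood at 15.2% of called promoter peaks (54 of 356) and 1.97% of those not called, and at 19.3% of called distal peaks (77 of 398) and 5.95% of those not called, with 2.88% to 3.72% in the outer windows and 2.13% at TSS windows. Promoter peaks with both TEAD and AP-1 were called in 20 of 24 cases, with TEAD alone in 114 of 169, with AP-1 alone in 34 of 57 (59.6%) and with neither in 188 of 1478 (12.7%). The same counts for distal peaks were 33 of 35, 148 of 166, 44 of 58 (75.9%) and 173 of 408 (42.4%). RUNX (TGTGGTT or TGCGGTT), whose factors are known partners of YAP and TAZ, stood at 7.58% of called promoter peaks and 2.41% of those not called, and at 10.3% of called distal peaks and 4.09% of those not called. Around the called promoter peaks the outer windows held RUNX in 6.32% of cases, inside the interval of 5.06 to 10.8 at the summits, and around the called distal peaks in 3.77%.

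Motifs of CpG island promoters went the other way. The ETS consensus CCGGAAG was found at 9.27% of called promoter peaks (33 of 356, 6.47 to 12.8) and 26.7% of those not called (366 of 1372, 24.4 to 29.1), against 11.3% of all TSS windows and 0.983% to 1.42% of the outer windows. ZNF143 stood at 1.12% of called and 5.39% of not called promoter peaks, against 2.18% of TSS windows. For YY1 (AAGATGGC) the shares were 1.12% of called and 3.28% of not called peaks and for NRF1 0.562% and 2.62%, but the TSS windows held YY1 in 3.76% and NRF1 in 4.33% of cases. SP/KLF (GGGCGGG) stood at 25% of called and 34.7% of not called promoter peaks, against 38% of TSS windows. Of these motifs only ETS and ZNF143 were thus more common at promoter peaks not called than at TSS windows in general. The interval for NFY (CCAATNNG or CCAATCA), at 7.02% of called and 6.78% of not called peaks, was 4.6 to 10.2 and 5.51 to 8.24. At distal peaks the p53/p63 half-site was found at 5.53% of called and 8.55% of not called peaks, with intervals of 3.5 to 8.25 and 5.5 to 12.6.

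**Figure D2:**
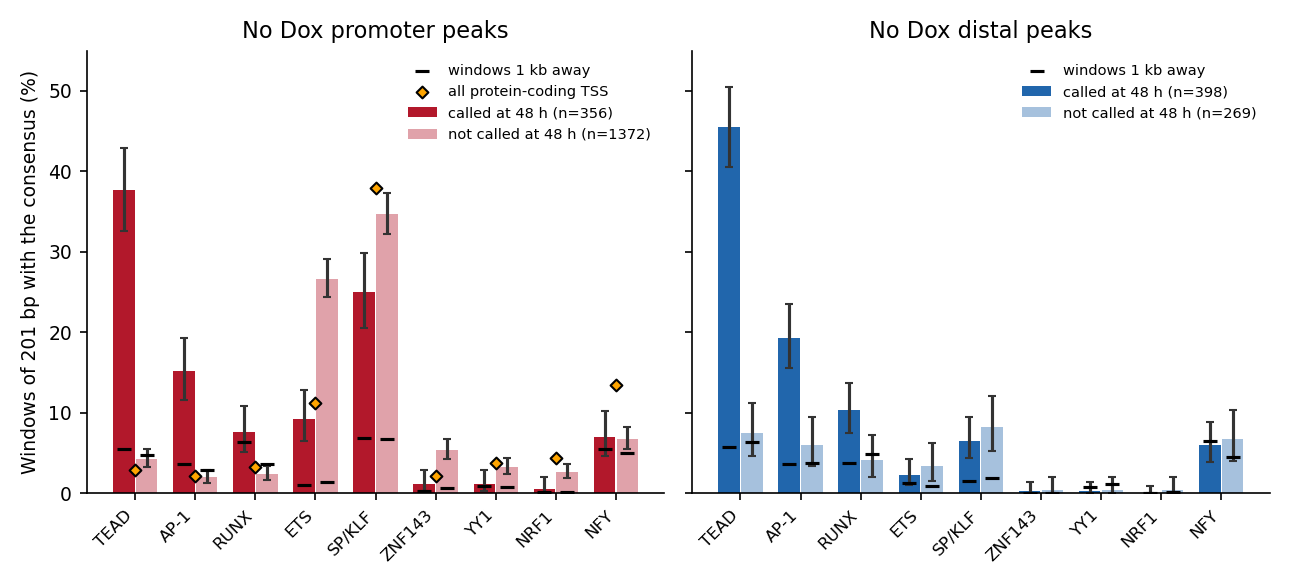
Share of windows (%) of 100 bp to each side of the summit with each of 9 consensus motifs at no Dox promoter peaks (left) and distal peaks (right), dark bars for peaks called at 48 h and light bars for peaks not called, with exact 95% intervals, black dashes for windows 1 kb away and diamonds for all protein-coding TSS. TEAD stands at 37.6% and 4.3% of promoter peaks called and not called, and ETS at 9.27% and 26.7%.

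CpG content and TEAD were next combined. Among CpG-rich promoter peaks 34 of 72 with TEAD (47.2%, 35.3 to 59.3) and 105 of 1255 without it (8.37%, 6.89 to 10) were called. Among the other promoter peaks the counts were 100 of 121 with TEAD (82.6%, 74.7 to 88.9) and 117 of 280 without it (41.8%, 35.9 to 47.8). Distal peaks that were not CpG-rich gave 174 of 193 with TEAD (90.2%, 85.1 to 94) and 213 of 420 without it (50.7%, 45.8 to 55.6), and the CpG-rich ones 7 of 8 and 4 of 46. TEAD therefore went with a call at equal CpG class, and low CpG content went with a call among promoter peaks and among distal peaks without TEAD. Among distal peaks with TEAD the 8 CpG-rich ones had an interval of 47.3 to 99.7, which holds the share of the others. CpG-rich sequence without TEAD had a low share at promoters and at distal sites alike. With the 48 h list held to 2431 peaks the promoter shares were 26.4% and 1.12% in CpG-rich sequence with and without TEAD and 52.9% and 17.9% in other sequence, and the distal shares outside CpG-rich sequence 71% and 28.1%.

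**Figure D3:**
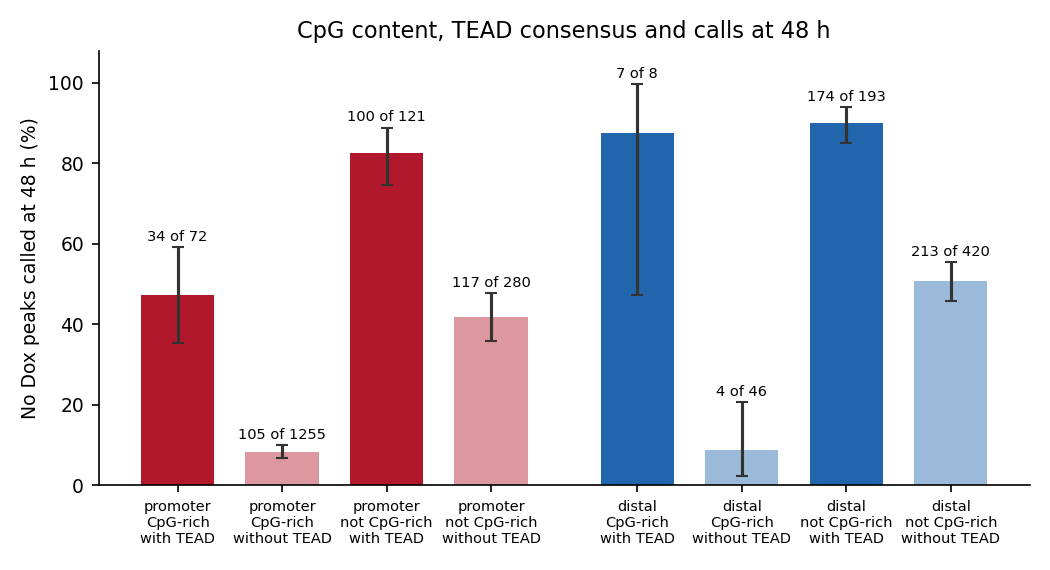
Share of no Dox peaks (%) called at 48 h on the y axis, with 1 bar for each combination of promoter or distal, CpG-rich or not, and with or without the TEAD consensus, exact 95% intervals as error bars and the counts above. The bars stand between 8.37% for CpG-rich promoters without TEAD (105 of 1255) and 90.2% for distal peaks with TEAD that were not CpG-rich (174 of 193).

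The strength of a no Dox peak had a different bearing in each class. CpG-rich promoter peaks were called in 14.2% (17 of 120) of cases at fold enrichments under 4, 9.87% (55 of 557) at 4 to 6, 11.8% (28 of 238) at 6 to 8, 10.8% (16 of 148) at 8 to 12, 7.64% (12 of 157) at 12 to 20 and 10.3% (11 of 107) above 20. Distal peaks that were not CpG-rich were called in 56.1% (37 of 66), 50.3% (181 of 360), 90.4% (103 of 114), 92.1% (58 of 63) and 80% (8 of 10) of cases over the first 5 of these steps. Distal peaks above 6 were thus more often found again than those below, and among CpG-rich promoters the intervals of the first step (8.47 to 21.7) and the last (5.24 to 17.7) overlapped. The 269 distal peaks not called were weak, with a median of 13 fragments at the summit, against 20 in the 398 called. The 1372 promoter peaks not called had a median of 20 fragments and the 356 called had 21.

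Values at 48 h could be set beside those without Dox for the peaks called in both lists, taking the strongest overlapping 48 h peak. The median ratio of fold enrichment, 48 h over no Dox, was 1.86 (quartiles 1.3 to 2.71) at 398 distal peaks, of which 357 were higher at 48 h, and 1.37 (0.914 to 2.06) at 356 promoter peaks, of which 249 were higher. These ratios cover called peaks only, and a call at 48 h favours a high value there. Of the peaks not called, 1366 of 1372 promoter peaks and 266 of 269 distal peaks stood above the ceiling without Dox. They were lower at 48 h by that measure, an outcome that the call limits nearly fixed in advance. The no Dox list had a lower background (1.49 fragments, against 2.84) and a stricter lowest −log10 p (5.16, against 4.52). Its peaks therefore mostly stood above the ceiling from the start. By this measure lower values at 48 h outnumbered higher ones over all promoter peaks, and nothing more is read from that count. Called promoters split by sequence. The median was 1.95 at 100 promoter peaks with TEAD that were not CpG-rich, 1.48 at 117 without TEAD that were not CpG-rich, 1.32 at 34 CpG-rich ones with TEAD and 0.927 at 105 CpG-rich ones without TEAD, of which 58 were lower at 48 h. The 23 called CpG-rich promoters with a fold enrichment of at least 12 without Dox had a median ratio of 0.216, and 18 of them stood at under 0.5. Picking peaks by a high no Dox value itself favours a low ratio.

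Of the strongest no Dox promoters, none was stronger at 48 h, though picking them by their no Dox value favours a lower value at 48 h. There were 115 with a fold enrichment of at least 20, of which 107 were CpG-rich, 110 lay within 200 bp of a TSS, 46 held the ETS and 1 the TEAD consensus. At 48 h 12 were called, all 12 at a lower value, and 103 were not. Measured against the ceiling, 599 of the 1372 promoter peaks not called (43.7%, 41 to 46.3) were at least 2-fold lower at 48 h, 242 (17.6%) at least 4-fold and 51 (3.72%) at least 8-fold. Of the 269 distal peaks not called, 28 (10.4%) were at least 2-fold and 2 at least 4-fold lower. These bounds rest on single libraries and take the ceiling as given. They concern fold enrichment and not the number of fragments. VPS45, for example, was called at 48 h with 29 fragments at a fold enrichment of 2.34, below the ceiling.

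**Figure D4:**
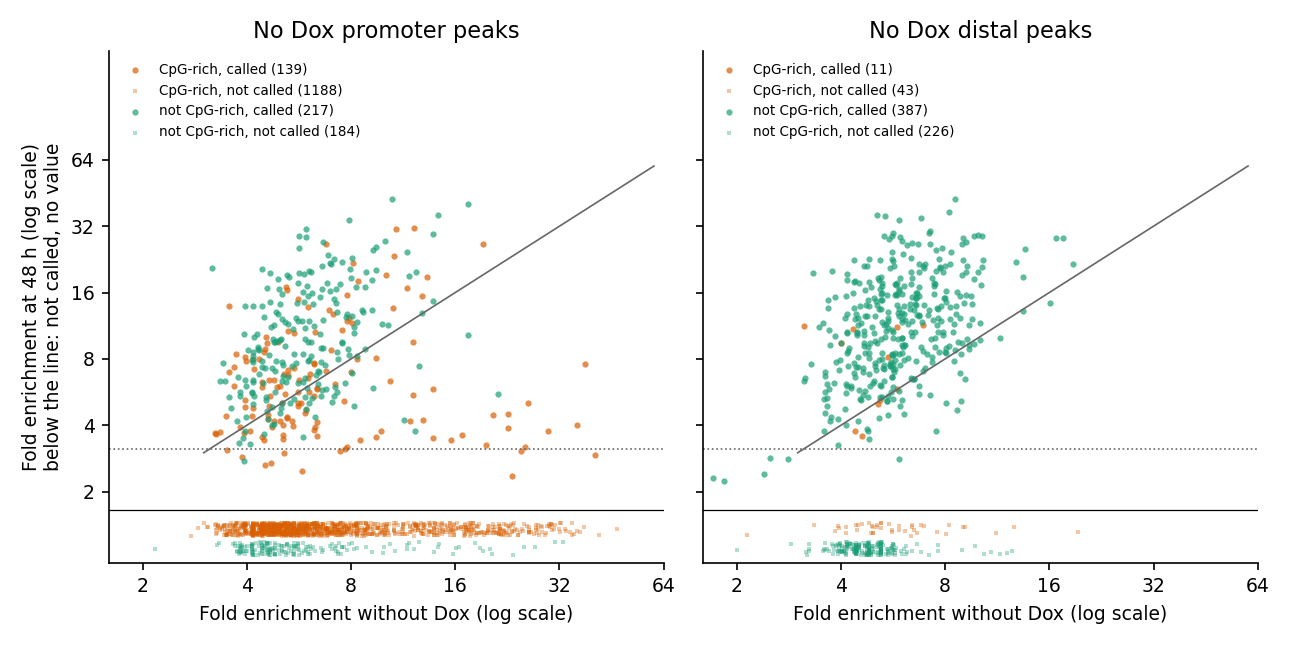
Fold enrichment at 48 h (y, log scale) against that without Dox (x, log scale) for no Dox promoter peaks (left) and distal peaks (right), orange for CpG-rich and green for other sequence. Squares below the solid line are peaks not called at 48 h and have no y value, the dotted line is the ceiling of 3.12 and the diagonal marks equal values. The 12 called promoters with at least 20 without Dox lie under the diagonal, between 2.34 (VPS45) and 7.61 (ZBTB45) at 48 h.

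The 10 strongest promoters that were not called all lay in CpG-rich sequence without TEAD. DPY19L4 had a fold enrichment of 47 without Dox from 162 fragments and was at least 15.1-fold lower at 48 h, as measured against the ceiling. EXOSC3, which codes for a cap protein of the RNA exosome, had 41.5 (188 fragments), CCDC97 37.6, the ribosomal protein gene RPS7 36.6, DMAP1 36.1 and the ubiquitin ligase gene UBE3B 35.1. DUS1L, a tRNA dihydrouridine synthase, had 34.9, B4GALT7, an enzyme of proteoglycan linker synthesis, 34.8, the zinc finger gene ZSCAN22 34.3 and the lysosomal acid phosphatase gene ACP2 33.5. By the same measure all 10 were at least 10.7-fold lower at 48 h, and 4 of them held the ETS consensus.

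The 10 strongest promoters that were called were of the same kind, all CpG-rich, none with TEAD and all lower at 48 h. NDUFS7, a subunit of respiratory complex I, had 2.94 at 48 h (24 fragments) and 40.5 without Dox (145 fragments). ZBTB45 had 7.61 at 48 h and 37.8 without Dox, and RTTN, a centriole protein gene, had 4.01 at 48 h and 35.9 without Dox. HEMK1, which methylates release factors, had 3.77 and 29.6 in the same order, the peroxisomal import gene PEX13 5.05 and 25.9, and the shared promoter of BANF1 and EIF1AD 3.17 and 25.5. DSTYK had 3.05 and 24.8, VPS45, a regulator of vesicle fusion, 2.34 and 23.4, the Golgi gene GOLGA3 4.5 and 22.8, and CYREN 3.89 and 22.7. Among the 10 lowest ratios of all matched peaks stood 9 of these and ALG3, an enzyme of glycan assembly, with 3.26 at 48 h and 19.6 without Dox. At VPS45, RTTN and CYREN the 48 h summit lay 451, 296 and 810 bp from the no Dox summit, so these calls may not be of the same site.

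Called peaks kept their summit where TEAD was present. The 48 h summit was over 200 bp away at 5 of 100 TEAD promoters that were not CpG-rich, 2 of 34 that were, and 10 of 174 distal TEAD peaks that were not CpG-rich. It was over 200 bp away at 42 of 105 CpG-rich promoters without TEAD (40%), with a median distance of 133 bp, and the 48 h window held TEAD at 23 of these 105. Without TEAD and outside CpG-rich sequence it was that far at 19 of 117 promoters and 43 of 213 distal peaks.

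The 10 strongest distal peaks that were called lay outside CpG-rich sequence, and 6 of them held TEAD. The peak 20399 bp from the TSS of the nuclear pore gene NUP155 had 21.6 at 48 h and 18.7 without Dox, that in an intron of LAMA5 28.3 at 48 h and 17.5 without Dox, and that in an intron near CHCHD6, a protein of mitochondrial cristae, 28.3 and 16.7 in the same order. EPHA2 had 14.4 at 48 h and 16.1 without Dox. The plexin gene PLXNB2 had 25.2 and 13.7, C1orf116 18.8 and 13.4, the nephrin-like adhesion gene KIRREL1 13.2 and 13.4, the RAB regulator TBC1D2 22.1 and 12.8, the homeobox gene IRX4 9.96 and 11.5 and the phospholipase gene PLB1 22.5 and 10.3, with 48 h given first. At 48 h 7 of the 10 were higher and 3 lower, with ratios of 0.862 to 0.982 at these 3.

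The 10 strongest distal peaks not called were more mixed, 4 in CpG-rich sequence, 3 with ETS and 1 with TEAD. The peak near ZNF778 had 19.3 without Dox (87 fragments) and was at least 6.19-fold lower at 48 h against the ceiling, and that near RGS9, a regulator of G protein signals, had 12.6. Values of 9.13 to 12.4 were found near CHD6, FAM133A, TH, EPG5, THEM6, PGBD2, RAP1GAP2 and XPO7, each named as the gene with the nearest protein-coding TSS and not as a target.

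The 10 highest ratios came from weak no Dox peaks, which a ranking by ratio favours. Of these, 8 were distal and the other 2 lay within 3 kb of a TSS of another transcript. None was CpG-rich, and 5 held TEAD. The peak nearest to CDH4, a cadherin gene, had 36 at 48 h and 5.1 without Dox, that nearest to HOXC13 35.7 and 5.35 in the same order, and that nearest to ETS1 31.2 and 5.94. DISC1, HCAR2, METTL4, USP25, DNAJB6, ZMAT4 and the cadherin gene CDH2, whose TSS is 987426 bp away, had 19.6 to 34.3 at 48 h and 3.18 to 5.87 without Dox.

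The last question was which gene functions lay on each side. A gene was counted when a no Dox promoter peak lay within 3 kb of one of its TSS, and as called when any such peak was called. Over all protein-coding genes 297 of 1884 were called (15.8%, 14.1 to 17.5), and each list is read beside that share. Genes that share a promoter count once each, and lists made from symbol patterns can hold genes of other function. Housekeeping lists together gave 40 of 370 (10.8%) and YAP and TAZ lists 15 of 21 (71.4%, 47.8 to 88.7). Adhesion and cytoskeleton lists gave 15 of 27 (55.6%, 35.3 to 74.5) and lineage lists 4 of 6 (22.3 to 95.7). Metabolism lists gave 4 of 9 (13.7 to 78.8) and signalling lists 6 of 20 (11.9 to 54.3). Both of these last intervals held the background share. A gene can count in several of these groups, as CCN1 does in a YAP and TAZ list and an adhesion list. The groups are therefore not independent.

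**Figure D5:**
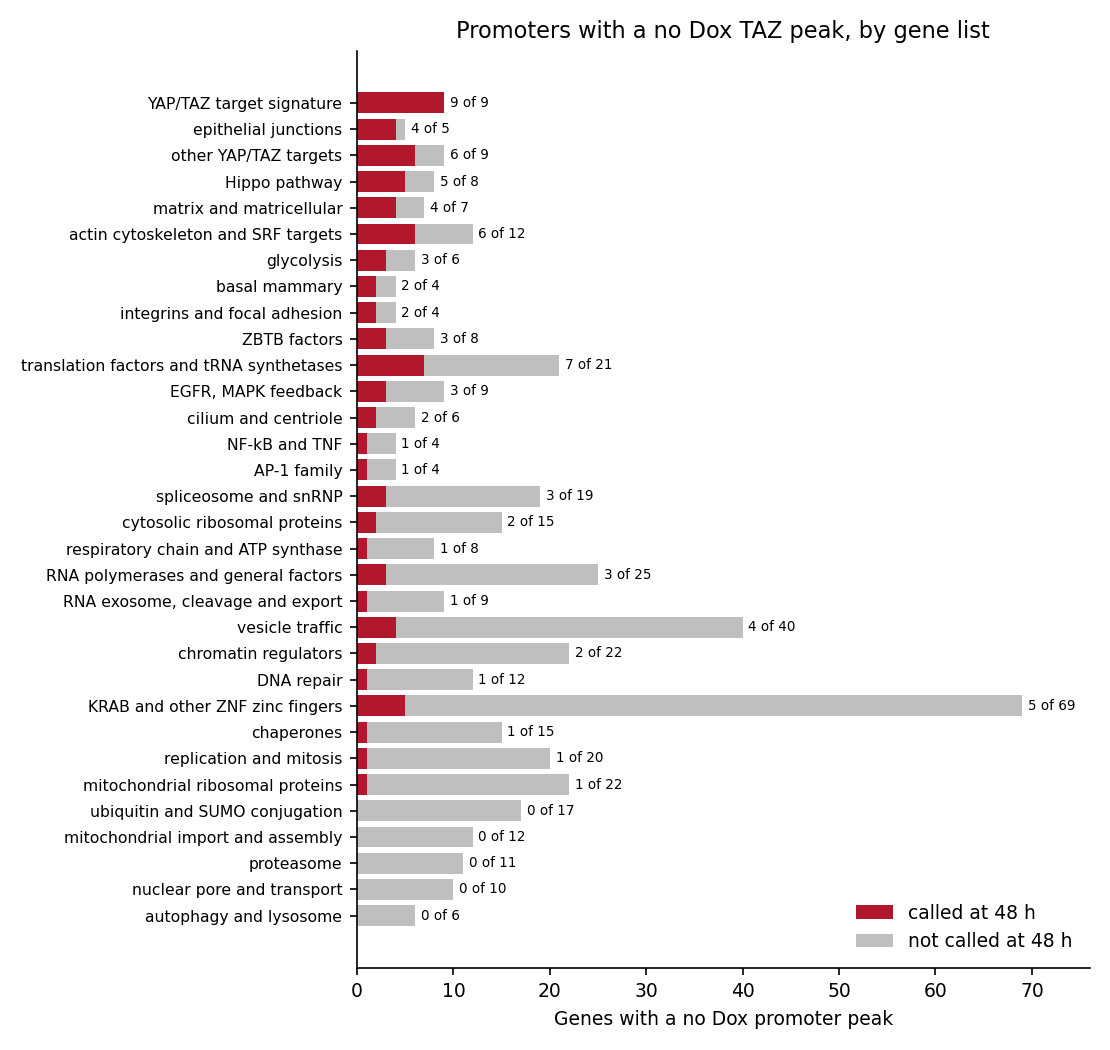
Number of genes with a no Dox promoter peak (x axis) in each gene list with at least 4 such genes, red for genes called at 48 h and grey for genes not called. The YAP/TAZ target signature stands at the top with 9 of 9 genes called, and the ubiquitin, mitochondrial import, proteasome, nuclear pore and autophagy lists have 0 called.

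YAP and TAZ targets were mostly found again. Of the 22 genes of a YAP/TAZ target signature, 9 had a no Dox promoter peak, and all 9 were called. Their 11 promoter peaks and 12 distal peaks within 100 kb were all called and all higher at 48 h, at 12.8 to 25.5 for promoter peaks at 48 h, against 3.55 to 12.9 without Dox, and at 4.38 to 29.9 for distal peaks at 48 h, against 3.73 to 9.2 without Dox. The ratios at promoters ran between 1.19 and 4.51. The matricellular gene CCN1 had 16.4 at 48 h and 5.22 without Dox at its promoter, CCDC80 25.5 and 5.64 in the same order, ANKRD1, a muscle ankyrin repeat protein, 19.2 and 5.22, and the receptor kinase gene AXL 12.8 and 7.11. The 2 promoter peaks of AMOTL2, a scaffold that holds YAP at junctions, had 15.6 and 21.8 at 48 h and 7.76 and 8.09 without Dox. LATS2, the kinase that restrains TAZ, had 19.2 at 48 h and 10.1 without Dox, PTPN14 15.4 and 12.9, and ARHGEF17 16.8 and 11.6. Both promoter peaks of ASAP1 overlapped 1 wide 48 h peak with 13.9 and had 3.55 and 3.95 without Dox. CCN2, CRIM1, GADD45A, NT5E and RBMS3 had a promoter peak at 48 h, at 4.08 to 19.9, and none without Dox, and MYOF, F3, IGFBP3, FJX1, FOXF2, DOCK5, NUAK2 and TGFB2 had none in either list. Of these, MYOF, NT5E, DOCK5, NUAK2, RBMS3 and TGFB2 had called distal peaks, as at NUAK2 with 29.9 at 48 h and 7.21 without Dox.

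These targets did not have low CpG content. Of the 11 promoter peaks of the signature 8 were CpG-rich, and all 8 were called, where 10.5% of all CpG-rich promoter peaks were. Over all YAP and TAZ lists 13 of 19 CpG-rich promoter peaks were called (68.4%, 43.4 to 87.4) and 12 of the 13 were higher at 48 h. In the housekeeping lists 24 of 317 were called (7.57%, 4.91 to 11.1) and 16 of the 24 were lower. The TEAD consensus stood at 6 of these 19 peaks and at 15 of the 317.

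TEAD1, the DNA-binding partner itself, had 26.4 at 48 h and 6.76 without Dox at a CpG-rich promoter without the consensus. VGLL4, a competitor of TAZ for TEAD, had 1 promoter peak that was called, with 6.96 at 48 h and 8.01 without Dox, and 1 that was not, with 4.9. TEAD3, WWTR1, which encodes TAZ, and VGLL3 had a promoter peak at 48 h, at 4.05, 7.23 and 8.52, and none without Dox. TEAD2, TEAD4, YAP1, VGLL1 and VGLL2 had none in either list. In the AP-1 family MAFK had 13.3 at 48 h and 6.92 without Dox, while JUND, ATF3 and FOSL2, with 9.15, 4.42 and 3.43 without Dox, were not called there. JUN had a promoter peak of 6.86 at 48 h and none without Dox, and FOSL2 had one of 5.34 at 48 h that did not overlap its no Dox peak.

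Adhesion and cytoskeleton genes were divided. In the list of actin and SRF target genes 6 of 12 were called. The myosin light chain gene MYL12B had 26.5 at 48 h and 19.3 without Dox, and ROCK2, a kinase that activates myosin, had 11.6 and 8.02 in the same order. Lower at 48 h were the formin gene DIAPH1 (3.76 at 48 h and 12.2 without Dox) and the calponin gene CNN2 (9.51 and 12.1). The actin gene ACTG1, with 6.37 without Dox, the capping protein gene CAPZB, with 5.67, the profilin gene PFN1, with 5.4 at a peak shared with ENO3, and MYO10, with 5.24, were not called. Among other YAP and TAZ targets ITGB2, an integrin beta chain, had 40.2 at 48 h and 17.4 without Dox and AJUBA, a LIM protein that binds LATS kinases, 31.5 and 12.1, while MYC and CAV1, each with 3.95 without Dox, were not called.

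In the matrix list 4 of 7 genes were called, with 19.9 at 48 h and 8.82 without Dox at LAMC1, and in the list of epithelial junctions 4 of 5, with 19.8 at 48 h and 6.14 without Dox at the plakophilin gene PKP4. KRT5, a basal keratin, had 10 at 48 h and 4.18 without Dox, and KRT7, a luminal keratin, had 19.5 and 5.86 in the same order. Of 96 marker genes of liver, neurons, blood and muscle, 2 had a no Dox promoter peak, SLC17A7 and ENO3, and neither was called. Peaks do not measure expression, so the lists are no check of the cell type. In the list of EGFR and MAPK feedback 3 of 9 genes were called, with an interval of 7.49 to 70.1 that holds the background share of 15.8%. These were the phosphatase genes DUSP1, DUSP4 and DUSP6, with 11.9 at 48 h and 7.79 without Dox at DUSP1. The 6 not called include ERBB2 with 7.34 and ETV4 with 6.86 without Dox.

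Together the housekeeping lists lay below the background share of 15.8%, at 10.8% (7.84 to 14.4). That background mixes CpG classes, and 317 of the 363 housekeeping promoter peaks were CpG-rich. Of these 317, 7.57% were called (4.91 to 11.1), an interval that holds the 10.5% of all CpG-rich promoter peaks. The other 46 were called in 32.6% of cases (19.5 to 48), below the 54.1% of all promoter peaks that were not CpG-rich. The interval of each single list, except the histones, held the background share of 15.8%, so low counts in a list do not set it apart. The histone interval counts 3 genes on 2 peaks as if they were separate, so it does not set that list apart either. The highest share was that of the replication-dependent histones, where H1-2, H2AC4 and H3C2 were all called on 2 peaks, both higher at 48 h. Next came the ZBTB factors with 3 of 8 (interval 8.52 to 75.5). The cilium and centriole list with 2 of 6 (4.33 to 77.7) and the translation list with 7 of 21 followed. Of 22 mitochondrial ribosomal protein genes with a no Dox promoter peak, MRPL48 alone was called, with 3.62 at 48 h and 16.8 without Dox, and the others included MRPL13 with 29.8, MRPL44 with 23.8, MRPS31 with 23.2 and MRPL21 with 22. The median fold enrichment of this list without Dox was 15.2, against 5.79 for the 1372 promoter peaks not called. None of 17 genes of ubiquitin and SUMO conjugation was called (UBE3B 35.1, CUL4A 29.4, ANAPC5 27.8 and USP30 25.2 without Dox). The same held for 12 genes of mitochondrial import and assembly (TIMM29 17.2), 11 of the proteasome (PSMF1 27.7 and PSMG3 18.9), and 10 of the nuclear pore and transport (IPO4 32). Counts of 0 in 17, 12, 11 and 10 leave room for shares of up to 19.5%, 26.5%, 28.5% and 30.8% by the exact interval.

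Of 69 genes in the list of ZNF zinc fingers 5 were called, among them ZFP36, a regulator of mRNA decay, with 14.9 at 48 h and 5.63 without Dox, and 64 were not, among them ZSCAN22 and ZNF296 with 34.3 and 29.8 without Dox. Vesicle traffic gave 4 of 40, replication and mitosis 1 of 20, chromatin regulators 2 of 22, DNA repair 1 of 12, RNA polymerases and general factors 3 of 25 and the spliceosome 3 of 19. Cytosolic ribosomal proteins gave 2 of 15, RPL37 with 3.53 at 48 h and 9.42 without Dox and RPL27A with 4.02 and 5.09, and 13 that were not called, such as RPL29 with 20.4. Translation factors and tRNA synthetases gave 7 of 21 (33.3%), with an interval of 14.6 to 57 that holds the background share, and the 7 include EEF1AKMT4 and its read-through transcript with ECE2 on 1 peak. Of their 6 called peaks 2 were higher and 4 lower at 48 h, among them EIF3F with 5.82 at 48 h and 13.8 without Dox and EEF1AKMT4 with 3.26 and 19.6 in the same order, at the peak also nearest to ALG3.

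Of the glycolysis genes 3 of 6 were called, with an interval of 11.8 to 88.2 that holds the background share of 15.8%. The glucose transporter gene SLC2A1 had 8.93 at 48 h and 6.54 without Dox, the lactate exporter gene SLC16A3 8.85 and 4.3 in the same order and PKM, the last enzyme of the pathway, 6.01 and 3.68, while PFKM, PGK1 and ENO1, with 17.1, 7.55 and 3.29 without Dox, were not called at their promoters. CpG-rich promoters shared by 2 or more protein-coding genes within 1 kb were called in 15 of 273 cases (5.49%, 3.11 to 8.9), and those with 1 such gene in 100 of 943 (10.6%, 8.71 to 12.7). Promoter peaks nearest to a TSS of a lncRNA were called in 87 of 277 cases (31.4%, 26 to 37.2) and those nearest to a protein-coding TSS in 239 of 1388 (17.2%, 15.3 to 19.3).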

How the data were processed

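TAZ ChIP-seq peak lists of MCF10A cells with inducible TAZ-4SA were analysed for 48 h of Dox (0.05 µg/ml) and for no Dox, with 1 TAZ library each. According to the study's methods and the submitters' processing notes, reads were mapped to hg38 with BWA and MACS2 called peaks within the ChiLin pipeline, with the false discovery rate held to 0.01. For BWA and MACS2 the version was not given in the sources used here. The deposited fold enrichment is a ratio that the authors' MACS2 made from summit pile and local background. The deposited −log10 p and −log10 q values are also those the authors' MACS2 gave each summit. Read totals were not used. Summit and background fragments were solved from fold enrichment and p, with a pseudocount of 1 and a Poisson model.

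Summits were placed on GENCODE version 44, as promoter (within 3 kb of any TSS), exon, intron or intergenic. Distal means intron or intergenic. CpG content and 21 consensus motifs were read from hg38. CpG-rich means an observed over expected ratio of at least 0.6 and a GC content of at least 50%. Each peak was named for the protein-coding gene with the nearest TSS. Gene lists were partly matched by symbol pattern. Marker lists of breast and other tissues were included, although no expression was measured. With 1 library per condition no test was made. Scripts were tested on simulated data, and used Python 3.11.15, numpy 2.4.6, pandas 2.3.3, scipy 1.17.1, pysam 0.24.0 and matplotlib 3.10.9.

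The genes named are the 10 with the highest fold enrichment without Dox in each of 4 classes (promoter or distal, called or not called), the 10 highest and 10 lowest ratios among matched peaks, up to 4 members per call in each gene list with the highest fold enrichment without Dox, and every gene of the YAP/TAZ signature, TEAD and AP-1 lists. SCNN1A and SLC7A5 were chosen after their values were seen, for their TEAD sites. The peaks compared, the gene lists and the motifs were chosen with earlier results of these data known. Alternatives changed the overlap rule, the q-value, the windows, the CpG limits, the promoter distance and the 48 h list size. The lists of 24 h and 72 h were used only in the closing section.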

Additional observations from a re-analysis of the deposited data

Results flagged for a closer look

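The 24 h and 72 h lists, which the comparison above did not use, held peaks at some of the no Dox sites that were not called at 48 h, above the limit that a count of 0 allows. That limit concerns counting only, and overlap by chance was not tested. At 72 h 1281 of the 1372 promoter sites (93.4%, 91.9 to 94.6) and 113 of the 269 distal sites (42%, 36 to 48.2) overlapped a peak, in a list of 38667 peaks. At 24 h 52 of the 1372 promoter sites did (3.79%, 2.84 to 4.94), in a list of 2469 peaks. A count of 0 would allow shares of up to 0.219% of promoter and 1.12% of distal sites. At 24 h 1 of the 269 distal sites overlapped a peak, which is under that limit.

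The promoter sites found at 72 h were CpG-rich in 89.9% of cases and the other promoter sites in 40.7%. The 52 promoter sites found at 24 h had a median fold enrichment of 14.7 without Dox, against 5.66 at the others. Sites not called at 48 h were thus mostly called again at promoters in the 72 h list, which is also the longest. The part of list size and library depth in this was not tested.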

How the results depend on the processing

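Of 72 alternatives over 23 results, 28 stayed within the interval of the value reported and 44 moved outside it. Shares called at 48 h were 22.7% (all), 15.6% (promoter) and 39.9% (distal) where the shared stretch had to cover 50% of each interval, and 26.7%, 16.7% and 51.4% with summits within 200 bp. With the 48 h list held to the 2431 peaks of highest −log10 q, an alternative chosen after seeing the data, they were 17.2%, 8.51% and 38.7%. No Dox peaks with a −log10 q of at least 5 gave 36.2% over all and 77.9% at distal sites. The promoter share was 16% within 1 kb of any TSS and 17.5% within 3 kb of a protein-coding TSS, and the share of genes 12.4% within 1 kb. The share of 48 h peaks found without Dox was 4.68% with the 50% overlap and 5.52% by summits. Holding 48 h peaks to the lowest −log10 p of the no Dox list, also chosen after seeing the data, changed no count. The restriction of promoter and distal peaks to chromosomes 1 to 22, X and Y was chosen at the same stage. It could not change either share, since both classes leave out other sequences by definition, although it is counted among the 28.

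CpG-rich shares at a ratio of at least 0.75 and a GC content of at least 55% were 26.1% of called and 65.1% of not called promoter peaks and 7.43% of distal peaks not called. Narrower windows gave 84.6% of promoter peaks not called and 5.03% of distal peaks called, and wider ones 11.5% of distal peaks not called. In windows of 50 bp to each side TEAD stood at 29.8% of called and 2.11% of not called promoter peaks and at 31.9% and 4.09% of distal peaks, AP-1 at 10.7% and 1.09% of promoter peaks and 12.6% of called distal peaks, and ETS at 4.49% and 17.6% of promoter peaks and 1.01% and 1.12% of distal peaks. Over whole peaks TEAD stood at 55.3% and 12.2% of promoter and 66.1% and 17.8% of distal peaks, AP-1 at 26.1% and 6.41% of promoter and 35.4% and 17.5% of distal peaks, and ETS at 16.9% and 39.6% of promoter peaks and 5.28% and 5.20% of distal peaks, called given before not called. The order of ETS at distal peaks thus turned over whole peaks, with overlapping intervals there and in the main window. The median ratios at matched peaks moved by less than their intervals.

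No replicate was left out, since each condition had 1 library. A site not called at 48 h has no value there, so lower binding is bounded only through the ceiling. Fragments were solved from the lists and are not read totals.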

Other observations

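The 25 no Dox peaks in exons outside promoters were called at 48 h in 18 cases (72%, 50.6 to 87.9), and the 11 peaks outside chromosomes 1 to 22, X and Y in 6 cases. Of the 49 distal no Dox peaks within 100 kb of housekeeping genes, 27 were called (55.1%, 40.2 to 69.3), and 25 of these 27 were higher at 48 h. Of the 317 CpG-rich promoter peaks of the same lists 24 were called and 8 of these were higher.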
